A study of Mus musculus with 7 samples.

Results

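The genes described here are the 10 that build the calcium cycling machinery of the sarcoplasmic reticulum, the calcium store of muscle cells. They were chosen by name, as a pump (Atp2a2), a release channel (Ryr2), their regulators (Pln, Sln, Fkbp1b) and the proteins of the junction and lumen (Trdn, Asph, Hrc, Casq2, Casq1). The choice was made with earlier results of these data known. All 10 were among the 24421 genes of the count table, and all 10 passed the filter on low counts among 13295 genes tested. RNA sequencing measured transcripts in left atria of adult CD1 mice, 4 libraries with the genotype FOG2 overexpression and 3 with the genotype WT (wild type). Both groups came from animals kept without doxycycline for 1 week, named DTG and NTG in the labels, which neither expand these terms nor name the promoter that drives FOG2. FOG2, the product of Zfpm2, is a cofactor that binds GATA transcription factors. The series title ties it to TBX5, GATA4 and the risk of atrial fibrillation, so the comparison asks how this calcium machinery stood when FOG2 was overexpressed.

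In each heartbeat the ryanodine receptor RYR2 opens and lets calcium out of the reticulum, which starts contraction, and the pump SERCA2, encoded by Atp2a2, draws it back, which ends contraction. Phospholamban (Pln) and sarcolipin (Sln) are small membrane proteins that hold the pump back, and sarcolipin is known in the heart as an atrial protein. Calsequestrin (Casq2) buffers calcium inside the store and is tethered to the release channel by triadin (Trdn) and junctin, a product of Asph. TBX5 is known to act on several of these genes in the atrium.

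Reads counted to genes came to between 5562520 and 8655655 per library, so that 1 read stood for 0.111 to 0.174 CPM (the count as a share of the scaled library total). Zfpm2 stood at 29.4 to 31.7 CPM in the wild type libraries and at 140.1 to 262 CPM in overexpression, so that the overexpressed gene was high in every library labelled so. Overexpression replicate 1 stood apart, with correlations across genes of 0.946 to 0.949 with the other overexpression libraries, where those 3 reached 0.979 to 0.983 among themselves. Wild type replicate 2 and overexpression replicate 1 carried Y-linked transcripts and the other 5 libraries had close to 0. Markers of cardiomyocytes summed to 116743 to 137470 CPM in wild type and 78342 to 111233 CPM in overexpression, with 1 of 8 called lower and 8 of 8 negative. Markers of atrial cardiomyocytes summed to 42254 to 47908 CPM and 25317 to 34229 CPM, with 2 of 6 tested called lower (Myl7 and Kcnj3), 6 of 6 negative and a median log2 fold change of -0.47. Over all tested genes, 3.29% were called lower. Bmp10, also on the atrial list, was at 0.128 and 0.251 CPM and was not tested. Ventricular markers summed to 50.0 to 82.8 CPM in wild type and 15.6 to 118 CPM in overexpression. Of 5 erythroid markers, the 4 globin genes were at 0 in every library. Why they were at 0 was not tested, so they give no measure of blood in the libraries. Alas2, an enzyme of heme synthesis, had 41.0 ± 7.14 CPM in wild type and 102 ± 85.7 CPM in overexpression (SD), with 221 CPM in overexpression replicate 1.

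Promoter sequences are shown first because GATA factors and TBX5 are the factors the series names. RefSeq promoters (build GRCm38.p6, the patch level of mm10) matched 6 of the 10 members. Atp2a2, Sln, Trdn and Asph had no match, so the motif search does not cover the pump or sarcolipin. Shown are Ryr2, Pln and Hrc, the members with a match that fell, with Casq2, the main luminal buffer, beside them. The runs read 5′ to 3′ on the gene's strand and stop before the first annotated transcript base. Capitals mark GATAA or its reverse complement TTATC, the core bound by GATA factors. They cover chr13:12106946-12107195 (minus strand) for Ryr2, chr10:53337436-53337666 (plus) for Pln, chr7:45335019-45335268 (plus) for Hrc and chr3:102086165-102086414 (plus) for Casq2.
Ryr2: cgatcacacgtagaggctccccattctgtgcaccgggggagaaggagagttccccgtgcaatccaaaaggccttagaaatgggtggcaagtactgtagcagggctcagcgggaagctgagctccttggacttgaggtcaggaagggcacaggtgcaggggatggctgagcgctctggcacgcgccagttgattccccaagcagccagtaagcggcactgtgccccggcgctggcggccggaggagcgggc
Pln: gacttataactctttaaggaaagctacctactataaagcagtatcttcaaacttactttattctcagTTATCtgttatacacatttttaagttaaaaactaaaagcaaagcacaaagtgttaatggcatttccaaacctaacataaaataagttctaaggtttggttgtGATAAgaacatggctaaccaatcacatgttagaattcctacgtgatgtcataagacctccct
Hrc: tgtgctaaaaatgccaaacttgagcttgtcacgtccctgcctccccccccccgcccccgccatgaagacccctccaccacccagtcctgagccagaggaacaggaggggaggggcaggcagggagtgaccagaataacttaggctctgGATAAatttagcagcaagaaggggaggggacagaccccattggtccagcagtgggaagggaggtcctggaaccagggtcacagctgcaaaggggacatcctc
Casq2: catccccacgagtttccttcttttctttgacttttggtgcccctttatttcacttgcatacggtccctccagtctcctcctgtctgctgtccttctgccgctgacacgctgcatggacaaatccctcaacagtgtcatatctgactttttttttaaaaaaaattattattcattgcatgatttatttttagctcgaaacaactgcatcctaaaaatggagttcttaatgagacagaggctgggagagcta
GATAA, searched on both strands in the 250 bases before the start, occurred 2 times at Pln and 1 time each at Hrc and Casq1, and not at Ryr2, Casq2 or Fkbp1b. It occurred in 22.6% of all 32851 promoter windows of that length. The T-box motif AGGTGT (reverse complement ACACCT), which does not overlap the other motif, was in none of the 6 windows and in 11.8% of all. These matches describe the letters of the windows and say nothing of binding.

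In wild type atria, the members differed widely in abundance. Levels were set side by side per kilobase of exon, counting the exons of all annotated transcripts of a gene. Genes with many transcripts may thereby be placed too low. Asph has 20 transcripts over 16.1 kb of exon, and Sln has 1 over 1.32 kb. By this measure Sln stood at 2429 ± 13.9 CPM per kb (SD, n = 3), Atp2a2 at 2037 ± 213 and Pln at 1304 ± 104. These held ranks 7, 9 and 17 among 12794 tested genes with a known exon length. Casq2 followed at 398 ± 30.4 CPM per kb, Hrc at 260.5 ± 24.4 and Ryr2 at 182 ± 22.3. Trdn reached 43.8 ± 1.15 and Asph 28.6 ± 3.28 CPM per kb. Casq1, the calsequestrin of fast skeletal muscle, had 3.47 ± 1.49 and Fkbp1b, which binds the release channel, 2.61 ± 0.356 CPM per kb, and the libraries of these 2 overlapped. All other neighbours in this order were separate in the wild type libraries. In overexpression the mean of Atp2a2 was 905 ± 187 (SD, n = 4) and that of Sln 813 ± 149 CPM per kb, but their libraries overlapped. Sln lay above Atp2a2 in replicates 2 and 4 and below it in replicates 1 and 3. Pln stood at 563 ± 90.1, and its libraries overlapped those of Sln. The ranks of Atp2a2, Sln and Pln were then 18, 25 and 35.

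**Figure D1:**
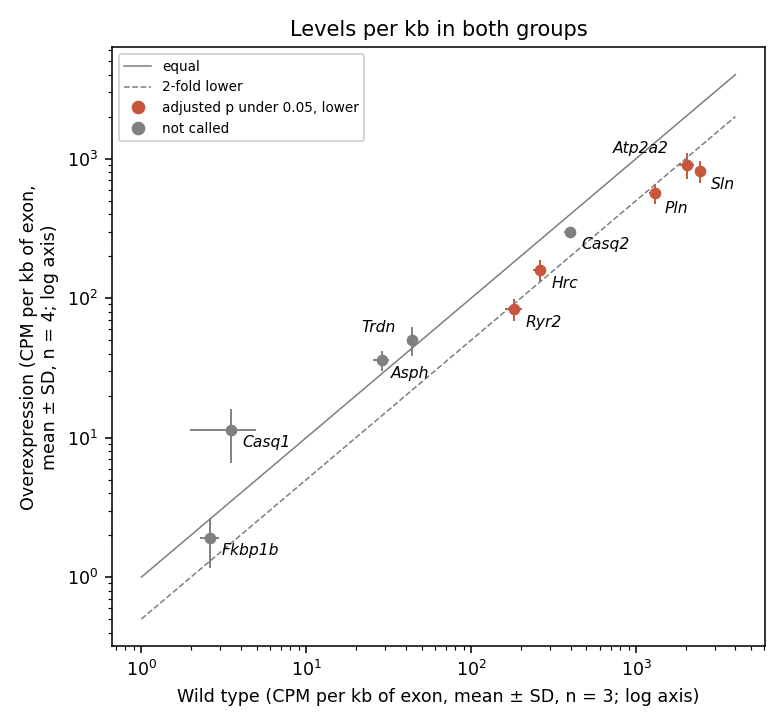
Mean level of each member in wild type (x axis, n = 3) and FOG2 overexpression (y axis, n = 4), in CPM per kb of exon on log axes, with SD bars and lines for equal and 2-fold lower levels. The called members, from Ryr2 at 182 to Sln at 2429 CPM per kb in wild type, lie below the line of equality, and Trdn, Asph and Casq1 lie above it.

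Pump, inhibitors, release channel and the luminal protein Hrc fell in atria overexpressing FOG2. Of the 10 members, 5 were lower and 0 higher at an adjusted p under 0.05 (edgeR quasi-likelihood test, Benjamini-Hochberg over all 13295 genes), where 3.29% of all tested genes were lower, 1.55% higher and 4.84% changed in either direction. At an unadjusted p under 0.05, 7 of the 10 members passed, 6 of them lower and Casq1 higher, against 19.2% of all tested genes. Every overexpression library lay below every wild type library for 6 members (10.8% of all genes) and above for 1 member (8.99%). The median log2 fold change of the 10 was -0.59 against 0.02 over all tested genes. Together the members took 2.46%, 2.66% and 2.59% of gene reads in wild type and 1.24%, 1.21%, 1.48% and 1.37% in overexpression replicates 1 to 4.

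**Figure D2:**
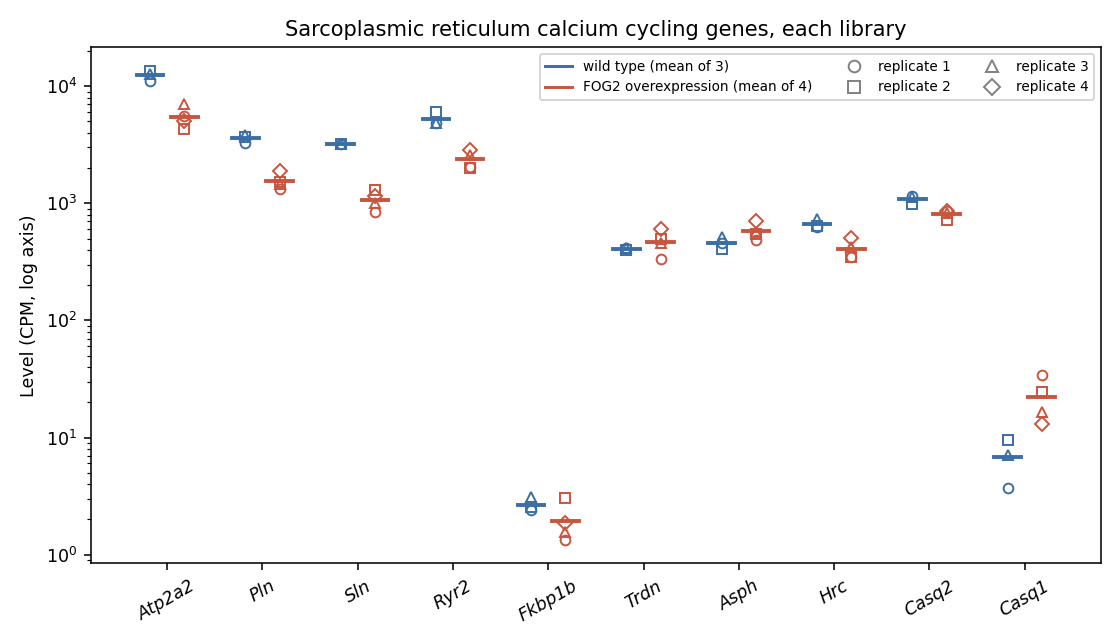
Level of each member in each library, in CPM on a log axis; symbols are replicates and bars are group means. Atp2a2, Pln, Sln, Ryr2, Hrc and Casq2 have every overexpression library below wild type, Casq1 has every one above, and Trdn, Asph and Fkbp1b overlap.

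Atp2a2, on chromosome 5 from 122453513 to 122502225 (mm10, minus strand), gave the most reads. Its level was 10986, 13537 and 12632 CPM in wild type replicates 1 to 3. In overexpression replicates 1 to 4 it was 5610.5, 4304, 7006 and 5086 CPM. The groups did not overlap, and replicate 3, the highest of the overexpression libraries, still stood at 56.6% of the wild type mean. The log2 fold change was -1.17 ± 0.18 (SE; 95% interval -1.58 to -0.76, edgeR adjusted p = 0.00661).

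Pln, the phospholamban gene on chromosome 10 (53337667 to 53345987, plus strand), fell from 3274, 3693 and 3824 CPM in wild type to 1324, 1526, 1461 and 1905 CPM. Its overexpression libraries held 36.8% to 53.0% of the wild type mean, with replicate 4 highest. The log2 fold change was -1.21 ± 0.15 (SE; 95% interval -1.55 to -0.88, edgeR adjusted p = 0.00225). The opposite-strand transcript Gm47644, which shares 59.6% of the exon bases of Pln, is not a row of the count table. Another opposite-strand gene, Cep85l, shares 5.11% of the exon bases of Pln and had mean levels of 28.2 CPM in the wild type libraries against 26.0 in overexpression.

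Sln, the sarcolipin gene on chromosome 9 (53850164 to 53854560, plus strand), fell furthest of the 10. Its wild type libraries were close together at 3184, 3220.2 and 3199 CPM, and the overexpression libraries had 841, 1299.9, 1002 and 1144 CPM. The lowest value, in replicate 1, was 26.3% of the wild type mean and the highest, in replicate 2, 40.6%. The log2 fold change was -1.58 ± 0.15 (SE; 95% interval -1.93 to -1.23, edgeR adjusted p = 6.10e-04), and 0.873% of tested genes were more negative.

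Ryr2, on chromosome 13 from 11553102 to 12106945 (minus strand), encodes the channel that releases calcium from the store. It had 4852, 5979 and 4880 CPM in wild type, where replicate 2 was the highest. In overexpression it had 2057, 2002, 2603 and 2879 CPM, so all 4 libraries lay below all 3. The log2 fold change was -1.13 ± 0.17 (SE; 95% interval -1.51 to -0.76, edgeR adjusted p = 0.00549). Fkbp1b, on chromosome 12 (4833174 to 4841591), encodes calstabin 2, which binds that channel, and was near the limit of detection with 18 to 25 reads per wild type library and 9 to 21 per overexpression library. It had 2.39, 2.54 and 3.08 CPM in the wild type libraries and 1.33, 3.03, 1.57 and 1.86 CPM with FOG2 overexpression. The groups overlapped through replicate 2, and the interval of its log2 fold change, -1.22 to 0.30, spans both directions (edgeR adjusted p = 0.499). A change of the size seen for Ryr2 lies inside that interval.

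The proteins that anchor calsequestrin to the channel did not pass the test. Trdn, on chromosome 10 (33080554 to 33476709), had 413, 398 and 419 CPM in the wild type libraries. In those of overexpression it had 333, 494, 457 and 599 CPM. Overexpression replicate 1 lay below every wild type library, and the other 3 lay above all of them. Its log2 fold change was 0.20 ± 0.18 (SE; 95% interval -0.20 to 0.60, edgeR adjusted p = 0.579), and 0.33 ± 0.12 without replicate 1 (adjusted p = 0.120) but 0.06 ± 0.16 without replicate 4 (adjusted p = 0.872). Asph, on chromosome 4 (9448069 to 9669344), had 457, 409 and 515 CPM in the wild type libraries and 486, 542, 573 and 706 CPM with FOG2 overexpression. These groups overlapped through replicate 1 (log2 fold change 0.33 ± 0.15, 95% interval -0.01 to 0.66, edgeR adjusted p = 0.271). The annotation gives Asph 20 transcripts. The gene is known to encode junctin, junctate and an aspartyl hydroxylase, which counts per gene do not separate. Clvs1, on the opposite strand, shares 14.3% of its exon bases and had 4.49 CPM in wild type. The upper bounds of both intervals lie above 0, and their lower bounds exclude a decrease of the size of that of Ryr2.

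Of the genes for proteins of the lumen, Hrc alone was called. Hrc, the histidine-rich calcium binding protein, lies on chromosome 7 (45335290 to 45338974) and had 630.5, 634 and 741 CPM in wild type. In overexpression it had 348, 350.1, 420.3 and 502 CPM, and it fell by 0.72 ± 0.15 on the log2 scale (SE; edgeR adjusted p = 0.0273). Leaving out single libraries, its log2 fold change stayed between -0.85 and -0.64, but the call was lost in 5 of 7 cases. Its adjusted p was 0.0834, 0.0917 and 0.101 without wild type replicates 1, 2 and 3, and 0.0705 and 0.0673 without overexpression replicates 2 and 3. It was 0.0160 and 0.0137 without overexpression replicates 1 and 4.

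Casq2, the cardiac calsequestrin on chromosome 3 (102086415 to 102146514), had 1149, 993 and 1123 CPM in the wild type libraries and 859.7, 717, 823 and 862 CPM with FOG2 overexpression. The groups did not overlap, but the difference was small (log2 fold change -0.42 ± 0.12, SE, 95% interval -0.68 to -0.15) and did not pass the test (edgeR adjusted p = 0.0798). It passed with DESeq2 (adjusted p = 0.00263) and without overexpression replicate 1 (0.0439). It did not pass without any other single library (0.116 to 0.271) or with the replicate block (0.156). Casq1, the skeletal calsequestrin on chromosome 1 (172209894 to 172219868), had 3.70, 9.46 and 7.14 CPM in the wild type libraries and 34.1, 24.7, 16.5 and 13.1 CPM with FOG2 overexpression. All 4 overexpression libraries lay above the wild type ones, from 95 to 307 reads against 31 to 67. Its log2 fold change of 1.72 ± 0.41 (SE; 95% interval 0.78 to 2.66) had an adjusted p = 0.0551, which was 4.23e-04 with DESeq2. Leaving out single libraries, it was 0.159, 0.109 and 0.149 without wild type replicates 1, 2 and 3, and 0.0420, 0.0904, 0.0705 and 0.0313 without overexpression replicates 1 to 4.

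Other skeletal muscle genes stand beside Casq1 as markers of that tissue. Of the 11 on the list, 5 could be tested and 0 were called in either direction with edgeR (1 at an unadjusted p under 0.05: Ckm, which the heart also expresses). Their summed level was 1223 to 1860 CPM in wild type and 990.2 to 1271 CPM in overexpression, nearly all of it Ckm. Of the 5 tested, 3 had negative and 2 positive log2 fold changes. These were 0.34 ± 0.60 for Acta1, 0.13 ± 0.35 for Tnni2, -0.29 ± 0.42 for Tnnt3, -0.28 ± 0.32 for Actn3 and -0.47 ± 0.16 for Ckm (SE). Myh4, the fast myosin heavy chain, Mylpf and Tnnc2 had too few reads to be tested. Myh4 stood at 0.204 CPM in the wild type libraries against 0.138 in overexpression, and Mylpf at 0.338 against 0.452. Tnnc2 had 0.0398 CPM in wild type and was at 0 in every overexpression library. The opposite-strand transcript that shares 8.0% of the exon bases of Casq1 is not a row of the count table.

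The overexpression libraries did not all take the same place. Replicate 4 was the highest of the 4 for 6 members, and replicate 1 the lowest for 6 members. Replicate 1 also had the lowest Zfpm2, at 140 CPM against 222, 262 and 246 CPM in replicates 2 to 4. It was the only overexpression library with Y-linked transcripts. The part of these differences in the member levels was not tested. Without replicate 1, 6 members were lower and 1 higher, against 5 and 0 with it, while calls over all tested genes went from 438 lower and 206 higher to 658 and 493.

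Sarcomere genes are given beside the calcium genes as other genes of the cardiomyocyte. Of the 32 on the list, 8 were called lower and 0 higher, and 24 were not called. Over all tested genes, 3.29% were called lower and 1.55% higher. The median over the 32 sarcomere genes was -0.36 in log2 fold change, and 5 had positive values. Their summed level was 144961 to 172557 CPM in wild type and 97910 to 135854 CPM in overexpression, so the groups did not overlap. Markers of smooth muscle and pericytes summed to 371 to 464 CPM in wild type and 1164 to 1673 CPM in overexpression, with 3 of 9 higher and a median of 1.26. Most of the difference in that sum was Acta2, smooth muscle actin, at 24.1 ± 10.8 CPM in wild type and 798 ± 161 CPM in overexpression (SD). The other 2 called higher were Cspg4 (log2 fold change 1.34 ± 0.20, SE, edgeR adjusted p = 0.00592) and Notch3 (0.62 ± 0.15, adjusted p = 0.0479). Rgs5 and Pdgfrb, markers of pericytes and the most abundant of the list in wild type, had log2 fold changes of 0.29 ± 0.14 and 0.35 ± 0.12 (SE) and were not called. All 9 markers had positive values. Fibroblast markers summed to 6928 to 10350 CPM and 9662 to 16030 CPM, with 0 of 8 called by edgeR. Of these 8, 7 had positive log2 fold changes, and their median was 0.46. Markers of vascular endothelium summed to 951 to 1134 CPM and 850 to 1249 CPM, with 0 of 6 called. Their median was -0.03, with 4 negative and 2 positive. Macrophage markers summed to 382 to 577 CPM and 490 to 672 CPM, with 0 of 6 called. Their median was 0.26, with 1 negative and 5 positive. The part of these cells in the results was not tested. In bulk tissue, fewer cardiomyocytes and less RNA per cardiomyocyte cannot be told apart. With libraries scaled to the sarcomere genes, which removes a decrease shared with them, the median of all tested genes moved from 0.02 to 0.43. On that scale Atp2a2 stood at -0.76 ± 0.16 (SE, adjusted p = 0.00831), Pln at -0.81 ± 0.14 (0.00213), Sln at -1.17 ± 0.17 (5.34e-04) and Ryr2 at -0.73 ± 0.14 (0.00349), all still lower. Hrc at -0.33 ± 0.15 no longer passed (adjusted p = 0.0847), and Casq2 stood at -0.02 ± 0.15. Trdn (0.59 ± 0.17), Asph (0.71 ± 0.16) and Casq1 (2.18 ± 0.45) were called higher on that scale, on which 3947 of all 13295 genes were called higher and 217 lower.

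**Figure D3:**
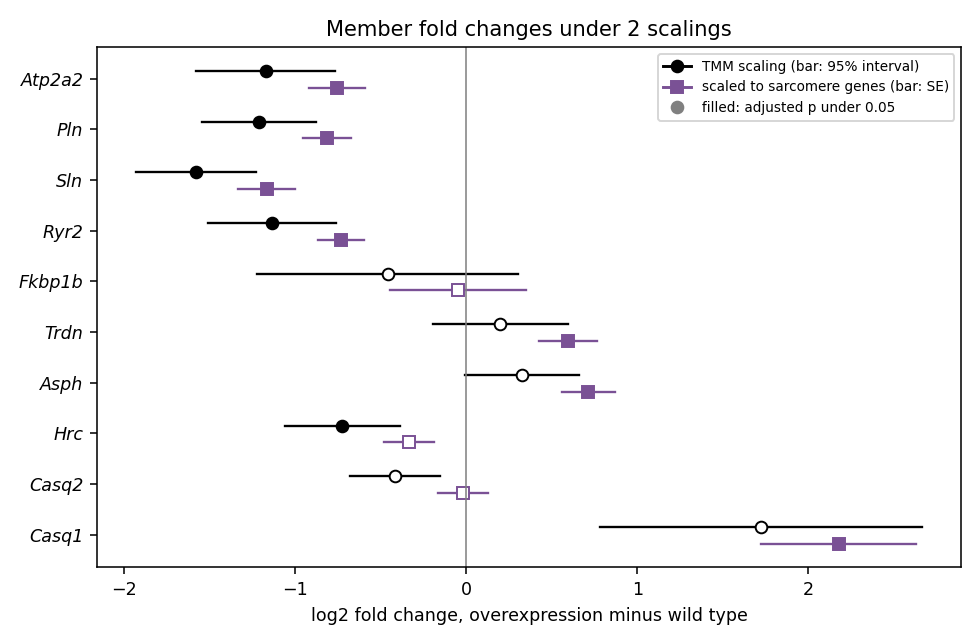
Log2 fold change (overexpression minus wild type) of each member with TMM scaling (circles, 95% interval) and with libraries scaled to sarcomere genes (squares, SE); filled symbols have an adjusted p under 0.05. Atp2a2, Pln, Sln and Ryr2 are below 0 and filled on both scales, and Trdn and Asph are filled only on the sarcomere scale, on which all genes are shifted upward (median 0.43).

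Ratios between members within a library do not depend on how libraries are scaled. They were chosen with earlier results of these data known. The ratios use the same counts as the fold changes above and are not separate support for them. Across 10 ratios, the exact permutation test over the 35 assignments of libraries to groups (two-sided, on the absolute difference of group means) can give no p below 0.0286. Adjusted over the 10 ratios, no ratio passed 0.05, and 4 reached the smallest p the design allows (adjusted p = 0.0714 each).

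Ratios of the inhibitors and the channel to the pump did not reach the smallest p the design allows, which does not show them unchanged. Per 100 reads of Atp2a2, Pln had 29.8, 27.3 and 30.3 reads in wild type and 23.6, 35.5, 20.9 and 37.5 in overexpression. The mean log2 ratio differed by -0.03 (exact permutation p = 0.886), while the SD was 0.42 in overexpression and 0.08 in wild type, with replicates 2 and 4 above and replicates 1 and 3 below the wild type libraries. Ryr2 to Atp2a2 differed by 0.04 (exact permutation p = 0.8). Sln to Atp2a2 differed by -0.41 (exact permutation p = 0.286), and Sln to Pln by -0.38 (exact permutation p = 0.0857), with overexpression libraries of 63.5, 85.2, 68.6 and 60.1 Sln reads per 100 of Pln against 97.2, 87.2 and 83.7 in wild type. Hrc to Atp2a2 differed by 0.45 (exact permutation p = 0.114), with every overexpression library above every wild type library.

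Ratios of the release complex and of the calsequestrins were those at the smallest p. Per 100 reads of Ryr2, Asph had 9.41, 6.85 and 10.6 reads in wild type and 23.6, 27.1, 22.0 and 24.5 in overexpression, a difference of 1.46 in log2 ratio or 2.76-fold (exact permutation p = 0.0286, adjusted p = 0.0714). Trdn had 8.52, 6.66 and 8.58 reads per 100 of Ryr2 in wild type and 16.2, 24.7, 17.6 and 20.8 in overexpression (1.31 in log2 ratio, 2.49-fold, the same p). Casq2 had 23.7, 16.6 and 23.0 reads per 100 of Ryr2 in wild type and 41.8, 35.8, 31.6 and 29.9 in overexpression, a difference of 0.73 with the same p. In all 3 ratios every overexpression library lay above every wild type library. Casq1 made up 0.327, 0.960 and 0.642 reads per 100 of Casq2 in wild type and 3.97, 3.45, 2.02 and 1.53 in overexpression (2.12 in log2 ratio, the same p). Fkbp1b to Ryr2 differed by 0.65 (exact permutation p = 0.171).

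**Figure D4:**
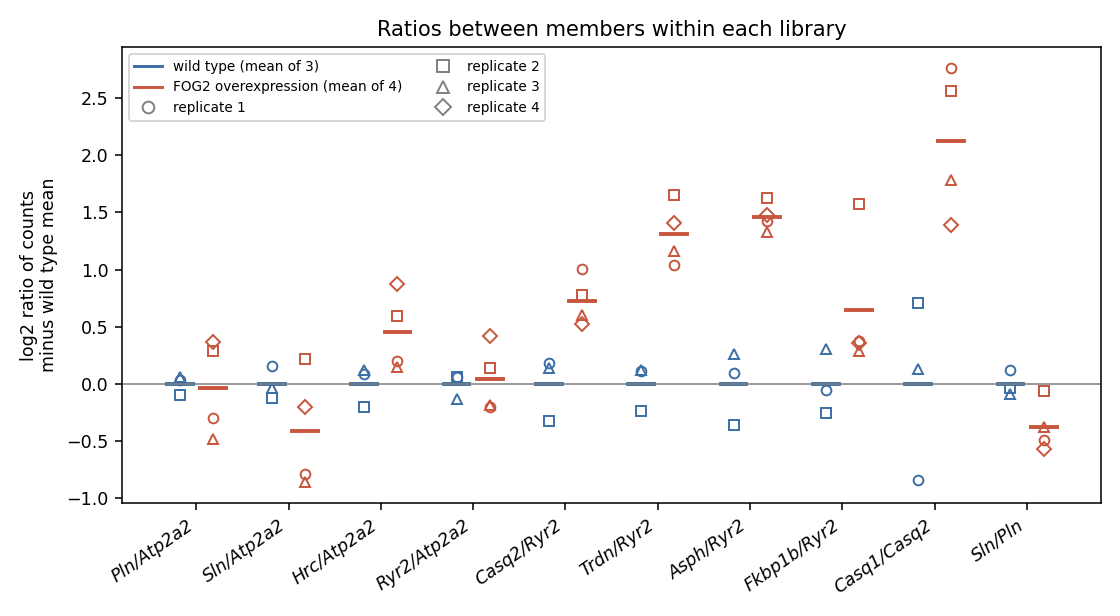
Log2 ratio of the counts of 2 members within each library, minus the wild type mean; symbols are replicates and bars are group means. The ratios of Casq2, Trdn and Asph to Ryr2, of Casq1 to Casq2 and of Hrc to Atp2a2 have all 4 overexpression libraries above the wild type ones. Pln/Atp2a2 and Ryr2/Atp2a2 spread around 0.

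Other genes of reticulum calcium cycling were taken as a list of 35 names, of which 30 were in the table and 27 were tested. Of these 27, 4 fell and 1 rose at an adjusted p under 0.05 (edgeR). Over all tested genes, 3.29% were lower and 1.55% higher. The median log2 fold change of the list was 0.04. Ryr3, a ryanodine receptor of low level in the heart, fell from 30.3, 30.1 and 32.5 CPM in wild type to 6.78, 4.91, 7.48 and 4.42 CPM (log2 fold change -2.40 ± 0.18, SE, edgeR adjusted p = 1.80e-04). Ppp1r3a, which targets protein phosphatase 1 to glycogen and the reticulum membrane, fell from 487, 446 and 373 CPM to 140.2, 99.6, 86.3 and 96.9 CPM (-2.04 ± 0.17, adjusted p = 2.89e-04).

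Ppp1r1a, known as inhibitor 1 of protein phosphatase 1, was the gene of the list that rose. It had 11.4, 9.89 and 12.8 CPM in the wild type libraries and 24.4, 32.9, 29.9 and 36.2 CPM with FOG2 overexpression (1.44 ± 0.17, SE, edgeR adjusted p = 0.00167). The catalytic subunits of that phosphatase had log2 fold changes of 0.26 ± 0.10 for Ppp1ca, -0.12 ± 0.11 for Ppp1cb and -0.17 ± 0.37 for Ppp1cc, and none passed the test. S100a1, a calcium sensor that binds the pump and the channel, had 417, 493 and 337 CPM in the wild type libraries and 204, 302, 220.1 and 267 CPM with FOG2 overexpression (-0.74 ± 0.17, adjusted p = 0.0413). Camk2d, the kinase that phosphorylates the channel and phospholamban, had 261, 284 and 253 CPM against 160.5, 185, 212 and 198 CPM (-0.49 ± 0.11, adjusted p = 0.0413). Both calls were lost without single libraries. S100a1 had an adjusted p of 0.142 and 0.179 without wild type replicates 1 and 2, and 0.106 and 0.0760 without overexpression replicates 3 and 4. Camk2d had 0.138, 0.182 and 0.0870 without wild type replicates 1, 2 and 3, and 0.0955 and 0.0788 without overexpression replicates 2 and 4. Scaled to the sarcomere genes, Camk2d stood at -0.08 ± 0.14 (adjusted p = 0.625) and S100a1 at -0.32 ± 0.17 (adjusted p = 0.143).

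The abundant genes of the list that did not pass included Srl, a luminal calcium binding protein of the reticulum, at 1798 ± 219 CPM in the wild type libraries against 1644 ± 265 in overexpression (log2 fold change -0.13 ± 0.16). Calu, another luminal calcium binding protein, stood at 0.07 ± 0.19, Calr, which encodes calreticulin, at 0.26 ± 0.14, and Akap6, which anchors protein kinase A near the channel, at -0.38 ± 0.14 (edgeR adjusted p = 0.188). The pump isoforms Atp2a1 and Atp2a3 had 47.0 ± 6.59 and 15.1 ± 5.36 CPM in wild type, with log2 fold changes of 0.54 ± 0.47 and 0.11 ± 0.26. Mrln, a small inhibitor of the pump in skeletal muscle, had 3.92 ± 0.744 CPM in the wild type libraries against 4.05 ± 1.30 in overexpression. Fkbp1a, the close relative of Fkbp1b, had 76.0 ± 3.77 CPM in the wild type libraries against 77.9 ± 13.1 in overexpression (0.04 ± 0.13). Jph2, which holds the reticulum to the cell membrane, stood at -0.05 ± 0.15.

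**Figure D5:**
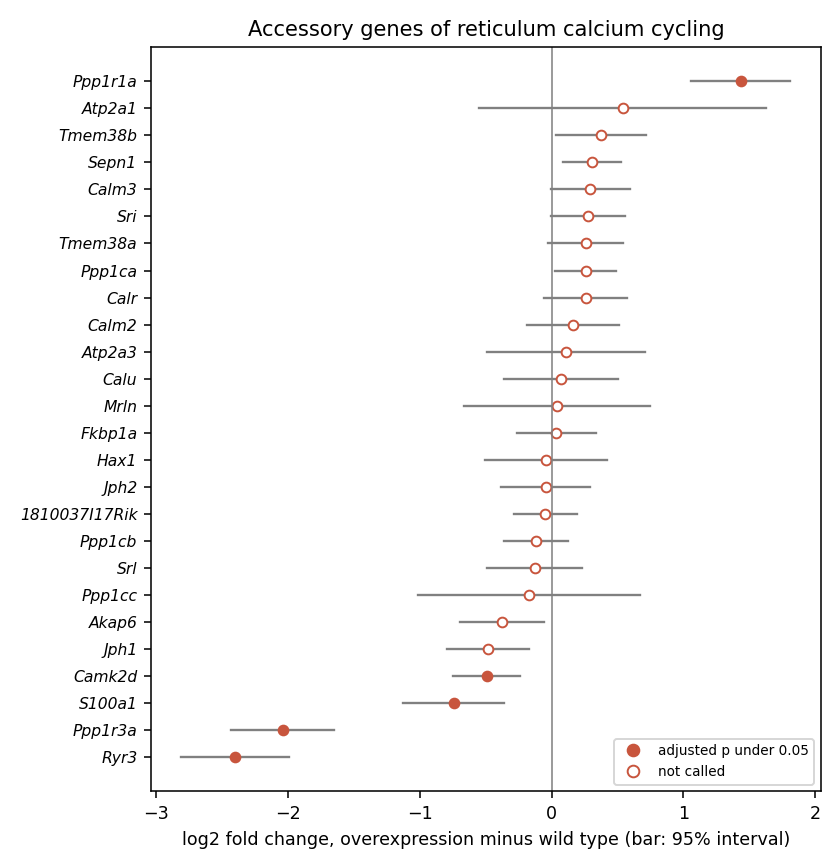
Log2 fold change (overexpression minus wild type) with 95% interval for tested genes of the wider list; filled points have an adjusted p under 0.05. Ryr3, Ppp1r3a, S100a1 and Camk2d are filled on the negative side and Ppp1r1a at 1.44 on the positive side.

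The factors that the series names did not pass the test. Tbx5 had 126, 140.1 and 149 CPM in the wild type libraries and 75.2, 87.1, 124 and 120.3 CPM with FOG2 overexpression, without overlap between the groups (log2 fold change -0.45 ± 0.18, SE, 95% interval -0.85 to -0.05, edgeR adjusted p = 0.207). Gata4 had 72.6, 77.5 and 81.4 CPM in the wild type libraries and 71.6, 77.0, 106 and 91.7 CPM with FOG2 overexpression, which overlapped (0.16 ± 0.14, adjusted p = 0.563).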

How the data were processed

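The authors deposited 1 table of whole-number counts per gene for 7 libraries. STAR, DESeq2 and HTSeq 0.6.0 are listed without roles, beside mm10, per the submitters' processing notes. The strand setting is not given in the sources used here, so reads of overlapping genes on opposite strands cannot be told apart. Rows naming no gene, 66.9% to 72.2% of reads per library, were left out. Whether libraries came from separate animals is not stated in the labels; p-values reflect only how much these libraries vary, which may be technical variation.

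Genes were filtered with filterByExpr (minimum count 10, minimum total 15), TMM-scaled, tested by edgeR 4.0.16 (R 4.3.3; quasi-likelihood, robust, two-sided, no covariate), and adjusted by Benjamini-Hochberg over all genes. CPM uses TMM-scaled totals. Exon lengths came from GENCODE M21 (95.5% of symbols matched). Ratios of counts used a pseudocount of 0.5. The test was checked on simulated data. The members, lists and ratios were chosen with earlier results of these data known. Named genes are the 10 members, Zfpm2, Tbx5, Gata4, the called genes of the wider list and its most abundant genes, of which 1 is not reported here; Ppp1ca, Ppp1cc, Atp2a1, Atp2a3, Mrln, Fkbp1a, Jph2 and skeletal markers were named beside them after their values were seen. Alternatives were other scalings and filters, DESeq2 1.42.0, limma-voom 3.58.1, no robust option, a replicate block, a Y-linked covariate and each library left out; the female libraries alone were added after seeing the data.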

Additional observations from a re-analysis of the deposited data

Results flagged for a closer look

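In overexpression replicate 2 the log2 ratio of Fkbp1b to Ryr2 reads was -9.33, far above the other overexpression libraries at -10.53, -10.62 and -10.55; its gap to the nearest was 0.931 of the group's range. It rests on 21 Fkbp1b reads. This was 1 of 32 sets of 4 values checked for a sample far from the others, and chance alone gives about 1 in 20.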

How the results depend on the processing

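Over 19 alternatives, Atp2a2, Pln, Sln and Ryr2 stayed lower and called (adjusted p at most 0.0436), as did Ryr3 and Ppp1r3a, and Ppp1r1a stayed higher. The number of members called lower ranged from 4 to 6. Members called higher numbered 0 to 1 leaving out single libraries, 1 with library totals only, DESeq2, the fit that was not robust, the Y-linked covariate or female libraries only, and 3 with sarcomere scaling; Casq1 was the single one in the first cases. Their median log2 fold change ranged from -0.70 to -0.52 leaving out single libraries and was -0.19 with sarcomere scaling.

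Of all tested genes, 438 were lower and 206 higher. These were 181 to 658 and 75 to 493 leaving out single libraries, 681 and 460 with DESeq2, and 217 lower and 3947 higher with sarcomere scaling. With library totals only 444 were higher, so that 60.2% of calls were higher against 32.0%, and the median over all genes was 0.15; with sarcomere scaling 94.8% were higher. DESeq2 left 51 genes without an adjusted p.

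In the wider list, 2 genes were lower with library totals only, sarcomere scaling or female libraries only, and 2 to 4 leaving out single libraries. Genes higher were 10 with sarcomere scaling, 2 with female libraries only and 1 to 2 leaving out single libraries. The list's median was 0.17 with library totals only, 0.46 with sarcomere scaling, -0.0133 with female libraries only and -0.0649 to 0.0656 leaving out single libraries. The cause of these shifts was not tested.

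The replicate numbers showed no clear pairing of the libraries (correlations of deviations 0.0778, 0.0165 and 0.0707). Wild type replicates 1 and 3 correlated best with the overexpression replicate of the same number, and wild type replicate 2 with overexpression replicate 4. With the replicate block 253 genes were lower and 129 higher, and the 5 called members stayed called. No ratio changed its call without single libraries or with a pseudocount of 5; with 1 library fewer the smallest possible p is 0.05 or 0.0667. Depth was lowest for Fkbp1b among the members, at 9 to 25 reads per library.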
